A study of Mus musculus with 6 samples.

Results

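Adrenomedullin (Adm) and the genes of its receptor, Calcrl, Ramp1, Ramp2 and Ramp3, were followed in the whole uterus of female mice on postnatal day 21. These are 5 of the 20637 genes listed in each library, and each was found by its symbol. They were chosen by name with the values of both genotypes in view, so their differences between genotypes are given as a description and not as a test. Poly(A) RNA was sequenced in 3 libraries from Nat10 f/f uteri, which carry floxed but intact Nat10 alleles and served as controls, and in 3 from Nat10 d/d uteri, in which Nat10 was deleted. The Nat10 enzyme adds acetyl groups to cytidine residues of RNA. The Cre driver, the cells in which it acts, the strain and the litters are not given in the sources used here, and the labels do not say whether a library is from 1 animal or a pool. Where replicates do not come from separate animals, the spread between them is technical.

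Adrenomedullin is a secreted peptide that relaxes blood vessels and keeps endothelial barriers tight. It acts on Calcrl, a G protein-coupled receptor that reaches the cell surface only together with a Ramp protein, a short membrane protein with a single membrane-spanning segment. The Ramp sets which peptide the receptor prefers: Calcrl with Ramp1 is the receptor for calcitonin gene-related peptide, and Calcrl with Ramp2 or Ramp3 binds adrenomedullin. Mice without Adm, Calcrl or Ramp2 die before birth with defects of blood and lymphatic vessels, whereas mice without Ramp3 survive. In the uterus, maternal adrenomedullin is known for its part in fertility and implantation, and Ramp3 is known to respond to oestrogen in several tissues.

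All coordinates are on mm10, with GENCODE release M21 as the annotation. Adm lies on chromosome 7 (110627661 to 110629820, plus strand), Calcrl on chromosome 2 (84330626 to 84425411, minus strand) and Ramp1 on chromosome 1 (91179822 to 91225196, plus strand). Ramp2 (101246028 to 101259546) and Ramp3 (6658521 to 6677475) both lie on the plus strand of chromosome 11, far from each other. All 5 are protein-coding, and the values below are for whole genes and do not separate exons, introns or isoforms. The annotated span of Ramp2 overlaps exons of Vps25 on the same strand, and exons of Ramp3 overlap the pseudogene Gm11978 on the opposite strand. Reads there could have been shared between genes, since the strand setting of the counting is not given. Vps25 was at 57.0 to 60.4 FPKM in f/f and 64.9 to 76.4 in d/d uteri, an order of the groups that Ramp2 did not show. The antisense gene Gm28863 spans Adm without sharing an exon with it. Gm28863 and Gm11978 were not analysed here.

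Upstream sequences are shown for the ligand and for the pair of Ramp genes whose values differed most between genotypes. They come from RefSeq (GRCm38.p6, the same assembly as mm10), whose promoter table matched 4 of the 5 genes. Each is written 5′ to 3′ and ends before the first annotated transcribed base. Capitals mark matches, on either strand, to GCGTG, which is known from hypoxia response elements, to GGGCGG, known as the GC box, and to TATAA, known as the TATA box. The other core of hypoxia response elements, ACGTG, was searched for too and is not in these windows.
Adm, chr7:110627407-110627656, plus strand: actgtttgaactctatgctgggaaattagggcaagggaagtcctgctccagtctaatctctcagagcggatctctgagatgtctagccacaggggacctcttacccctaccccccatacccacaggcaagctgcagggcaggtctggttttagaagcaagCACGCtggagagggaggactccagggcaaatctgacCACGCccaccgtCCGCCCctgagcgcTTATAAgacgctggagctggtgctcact
Ramp1, chr1:91179572-91179821, plus strand: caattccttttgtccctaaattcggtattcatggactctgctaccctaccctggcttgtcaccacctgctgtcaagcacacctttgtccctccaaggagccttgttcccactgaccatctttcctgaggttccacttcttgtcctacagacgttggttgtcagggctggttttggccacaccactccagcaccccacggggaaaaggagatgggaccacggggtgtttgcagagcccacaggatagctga
Ramp3, chr11:6658283-6658505, plus strand: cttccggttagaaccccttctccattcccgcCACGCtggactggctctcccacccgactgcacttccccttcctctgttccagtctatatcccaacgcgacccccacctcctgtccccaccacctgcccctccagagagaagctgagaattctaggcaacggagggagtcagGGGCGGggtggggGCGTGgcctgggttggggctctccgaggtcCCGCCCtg

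The 3 upstream regions are built differently. Adm has 2 matches to GCGTG, 1 GC box and a TATA box, where TATAA on the 2 strands overlaps. The 223 bases shown for Ramp3 have 2 matches to GCGTG and 2 GC boxes but no TATA box; the full window of 250 bases, which runs past the first annotated start, holds 3 GC boxes and otherwise the same matches. The 250 bases of Ramp1 have none of these letters. Among 32851 promoter windows of 250 bases in the table, GCGTG was found in 28.2%, GGGCGG was found in 32.7%, TATAA was found in 22.8% and ACGTG was found in 16.6%, so these matches are common. The oestrogen receptor motif letters AGGTCA (14% of windows) and the cAMP response motif letters TGACG (17.8%) were found in none of the 3. A match describes the letters only, and the deposited data hold no measurement of binding at these sites.

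Values are FPKM, fragments scaled by gene length and by the mapped fragments of the library, so levels can be set side by side between genes. Sequencing depth, estimated from the lowest values, differed by at most 1.262 times between libraries, and the total number of reads is not known. Nat10, the targeted gene, was at 13.2, 16.4 and 9.95 FPKM in f/f and at 5.57, 5.23 and 5.53 in d/d uteri, so the labels and the values go the same way. Markers of smooth muscle (Acta2, Myh11, Des), stroma (Hoxa10, Hand2) and epithelium (Epcam, Krt8) were present in all 6 libraries, as the label whole uterus implies. Nat10 d/d replicate 2 stood apart from the other libraries: its score on the first principal component was -40.2, against -4.6 to 25.1 in the other 5. Because of this, the change of each of the 5 genes is given with and without it. In bulk tissue, fewer cells of a type and less RNA per cell cannot be told apart.

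In f/f uteri, Ramp2 was the most abundant of the 5 genes. Its FPKM was 83.8, 85.4 and 85.7 in the 3 libraries, a mean of 85.0 ± 1.03 (SD, n = 3), which placed it at or above 96% of listed genes in each. Calcrl followed at 20.9 ± 1.26, Ramp3 at 20.6 ± 3.65 and Ramp1 at 19.5 ± 1.58 (SD, n = 3). The values of these 3 genes overlapped between libraries, so their order does not stand out from the replicate spread. Adm, the ligand, was lowest at 14.0 ± 2.26 (SD, n = 3), and its highest f/f value of 16.6 was just below the lowest value of Ramp3, 17.0. The control uterus thus held the mRNA of the receptor and all 3 Ramps at moderate to high levels, with Ramp2 at 4.08 ± 0.287 times the FPKM of Calcrl (SD, n = 3).

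Ramp3 was the gene whose level differed most between genotypes. In f/f uteri it was at 24.3, 17.0 and 20.4 FPKM, and in d/d uteri at 11.4, 11.9 and 9.07. All 3 d/d libraries were below all 3 controls, and the highest d/d value left a gap to the lowest control. The d/d mean of 10.8 ± 1.53 (SD, n = 3) was 52.6% of the f/f mean, and the log2 change on the log2(FPKM + 1) scale was -0.86 with a standard error of 0.16. Without Nat10 d/d replicate 2 the log2 change was -0.93, and over all single libraries left out it ranged from -0.99 to -0.74. Ranked within its library, Ramp3 was at or above 74.9% to 82.2% of listed genes in controls and 61.1% to 66.5% in d/d uteri.

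Ramp1 differed in the other direction in 2 of the 3 d/d uteri. It was at 21.2, 19.0 and 18.2 FPKM in f/f libraries and at 29.9, 16.7 and 35.0 in d/d libraries. Replicates 1 and 3 of the d/d group were above every control, and replicate 2 was below every control. The d/d mean was 27.2 ± 9.42 against 19.5 ± 1.58 in f/f uteri (SD, n = 3), a log2 change of 0.40 (SE 0.25). Without Nat10 d/d replicate 2 the log2 change was 0.71 and the groups no longer overlapped, as in 31.8% of all genes in that setting. Without replicate 3 it was 0.2. The size of the difference in Ramp1 thus depended on which d/d libraries were counted more than that of Ramp3 did.

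Ramp2, the Ramp of the vascular adrenomedullin receptor, was nearly level across libraries. It was at 83.8, 85.4 and 85.7 FPKM in f/f and at 87.7, 77.7 and 81.4 in d/d uteri. The d/d mean of 82.2 ± 5.04 (SD, n = 3) was 96.8% of the f/f mean, and the log2 change was -0.05 (SE 0.1), or -0.01 without Nat10 d/d replicate 2. The groups overlapped, with 1 d/d library above and 2 below all controls. Without the library above them, Nat10 d/d replicate 1, the log2 change was -0.1 and the groups did not overlap. In that setting 15% of all genes did not overlap.

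Calcrl, the receptor itself, also varied little, though more than Ramp2 among f/f libraries (SD on the log2 scale 0.082 against 0.017). Its FPKM was 22.3, 20.4 and 20.0 in f/f and 20.7, 18.1 and 19.7 in d/d uteri, with overlapping groups. The d/d mean of 19.5 ± 1.27 (SD, n = 3) was 93.4% of the f/f mean (log2 change -0.09, SE 0.11, or -0.05 without Nat10 d/d replicate 2). Without Nat10 d/d replicate 1 the log2 change was -0.14 and the groups did not overlap, as in 15% of all genes in that setting. Highest and lowest d/d libraries differed by 1.14 times in Calcrl and 1.13 times in Ramp2, compared with 1.32 times in Ramp3, 2.09 times in Ramp1 and 2.78 times in Adm.

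Adm was the most variable of the 5 genes in d/d uteri. It was at 12.9, 16.6 and 12.5 FPKM in f/f and at 11.2, 6.49 and 18.0 in d/d libraries. The d/d group held both the lowest and the highest of the 6 values, in replicates 2 and 3. Its mean of 11.9 ± 5.8 (SD, n = 3) was 85% of the f/f mean (log2 change -0.31, SE 0.31). Leaving out Nat10 d/d replicate 2 gave a log2 change of 0.03, and leaving out replicate 3 gave -0.64 with no overlap between groups, as in 30.2% of all genes in that setting. The standard deviation on the log2 scale was 0.673 in d/d and 0.21 in f/f uteri. The mean difference in Adm was smaller than the spread among the d/d libraries.

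**Figure D1:**
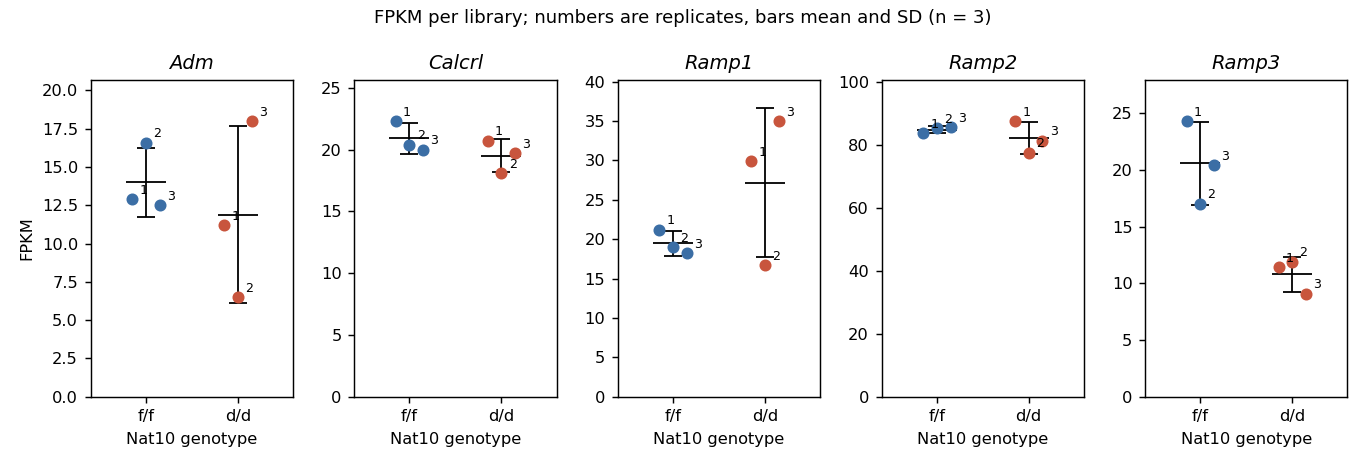
FPKM (vertical axes, from 0) of Adm, Calcrl, Ramp1, Ramp2 and Ramp3 in Nat10 f/f (blue) and Nat10 d/d (red) uteri, 1 point per library with its replicate number, and the mean with SD (n = 3). Ramp3 is below every control in all 3 d/d libraries, at 9.07 to 11.9 against 17.0 to 24.3, whereas the groups overlap in the other 4 genes.

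Of the 5 genes, Ramp3 alone had groups that did not overlap. Over all 12640 genes tested, groups did not overlap in 10.7%, and every d/d library lay below every f/f library in 4.6%. Since the genes were picked with this contrast in view, nothing is read from their count. No gene (0%) passed an adjusted p of 0.05 in limma with Benjamini-Hochberg adjustment over all 12640 genes, and none of the 5 did. With no adjustment, 630 genes had a p under 0.05. The differences described here are thus differences between these 6 libraries, with groups of 3.

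Across the 6 libraries, Calcrl and Ramp2 varied little and the other 3 genes varied more. Calcrl and Ramp2 stayed within -0.19 and 0.09 log2 units of their f/f mean in all 6 libraries. Ramp3 was at -0.78, -0.72 and -1.08 in the d/d libraries, below its f/f range of -0.25 to 0.24. Ramp1 and Adm both had their lowest value in Nat10 d/d replicate 2 (-0.2 and -0.99) and their highest in replicate 3 (0.82 and 0.35). They parted in replicate 1, where Ramp1 was at 0.6 and Adm at -0.29. Nat10 d/d replicates 2 and 3 were also the 2 extremes of the first principal component (scores of -40.2 and 25.1). Whether that component has a part in the values of Adm and Ramp1 was not tested.

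**Figure D2:**
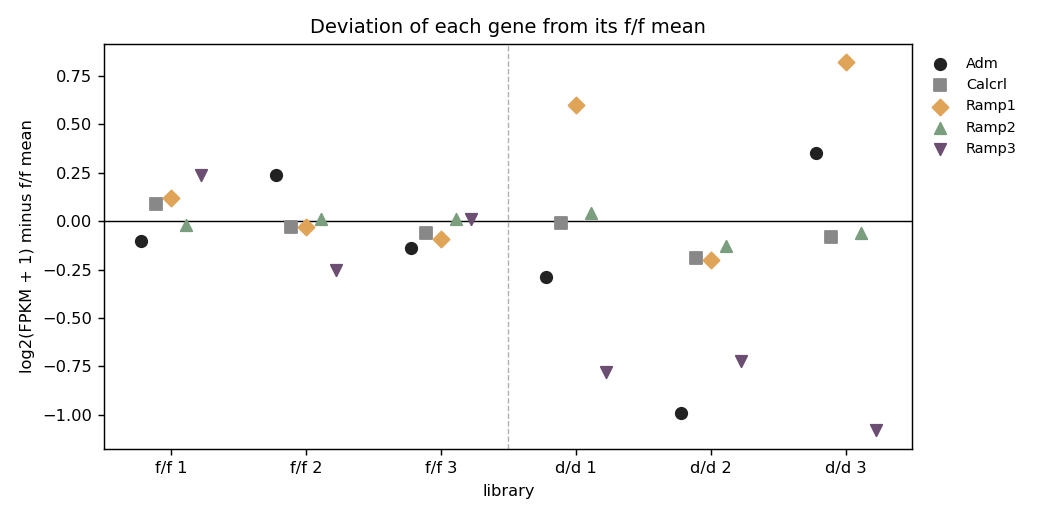
Deviation of log2(FPKM + 1) from the gene's f/f mean (vertical axis) in each of the 6 libraries (horizontal axis), 1 symbol per gene. Calcrl and Ramp2 stay near 0 in every library, Ramp3 is at -0.72 to -1.08 in the d/d libraries, and Adm and Ramp1 are lowest in d/d replicate 2 and highest in d/d replicate 3.

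The summed level of the 3 Ramps was similar in both groups, but its makeup differed. The sum was 129.3, 121.4 and 124.3 FPKM in f/f and 128.9, 106.4 and 125.5 in d/d uteri, lowest in Nat10 d/d replicate 2. Relative to Calcrl it was 5.99 ± 0.217 in f/f and 6.16 ± 0.264 in d/d uteri (SD, n = 3), a difference smaller than either spread. Ramp2 made up 64.8% to 70.4% of the sum in f/f and 64.9% to 73.0% in d/d uteri. The share of Ramp3 was 18.8%, 14.0% and 16.4% in f/f and 8.85%, 11.2% and 7.23% in d/d uteri, with no overlap. The share of Ramp1 was 16.4%, 15.7% and 14.6% in f/f and 23.2%, 15.7% and 27.9% in d/d uteri. Only replicate 2 of the d/d group lay inside the control range for Ramp1.

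The ratio of Ramp1 to Ramp3 is a within-library value that does not depend on the scaling of a library. It was 0.876, 1.12 and 0.89 in f/f and 2.62, 1.4 and 3.86 in d/d uteri. Ramp1, part of the receptor for calcitonin gene-related peptide, and Ramp3, part of an adrenomedullin receptor, were thus at nearly equal levels in controls, and Ramp1 was the higher in all 3 d/d uteri. Every d/d ratio was above every control ratio, also in replicate 2. In that library Ramp1 was itself below the controls, and the ratio came from the lower Ramp3. The ratio was added after the data were seen, from 2 genes whose means differed in opposite directions. Its separation is thus a description and not a test. The mean ratio was 0.962 ± 0.137 in f/f and 2.63 ± 1.23 in d/d uteri (SD, n = 3), and 3.24 in d/d uteri without replicate 2. Relative to Calcrl, Ramp3 was at 1.09, 0.833 and 1.02 in f/f and at 0.552, 0.658 and 0.461 in d/d uteri. Ramp2 relative to Calcrl was at 3.75, 4.2 and 4.29 in f/f and at 4.24, 4.28 and 4.13 in d/d uteri.

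**Figure D3:**
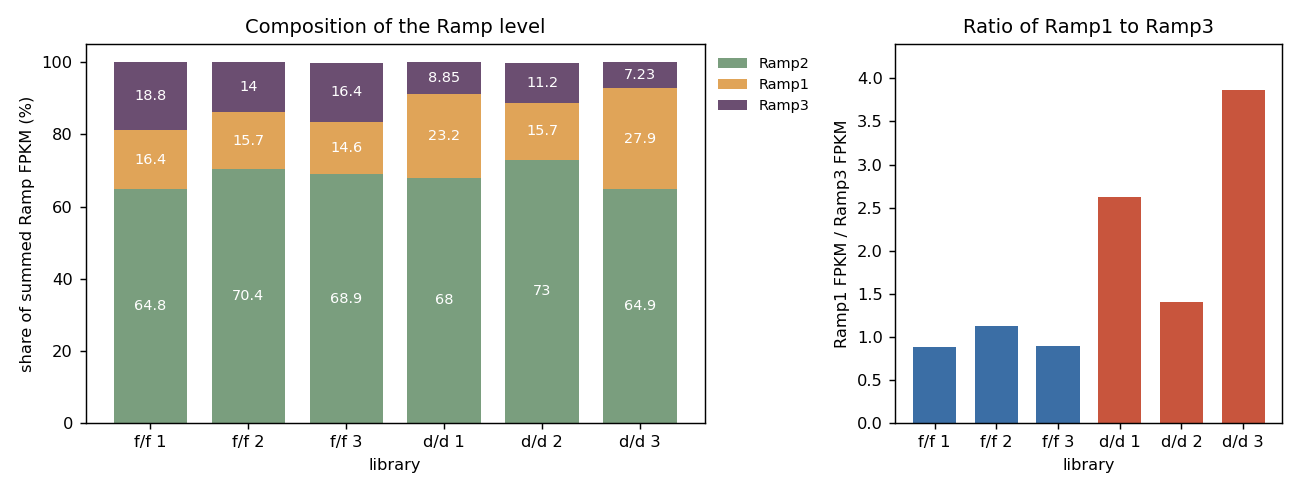
Left, share of Ramp1, Ramp2 and Ramp3 in their summed FPKM (percent) in each library. Right, ratio of Ramp1 FPKM to Ramp3 FPKM per library (blue f/f, red d/d). Ramp3 makes up 14.0% to 18.8% of the sum in controls and 7.23% to 11.2% in d/d uteri, and the ratio is 0.876 to 1.12 in controls and 1.4 to 3.86 in d/d uteri. The ratio was added after the data were seen.

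Calcrl and Ramp2 are abundant in endothelial cells, so markers of those cells were set beside them. The 12 blood endothelial markers summed to 464.4 to 531.7 FPKM in f/f and 419.6 to 511.4 in d/d uteri. Their median log2 change was -0.23 (all genes tested, 0.03), with 11 of 12 lower, and in 4 of them (Kdr, Flt1, Tek and Eng) every d/d library was below every control, against 4.6% of all genes tested. The 7 lymphatic markers summed to 129.8 to 146.9 FPKM in f/f and 110.0 to 134.6 in d/d uteri, with a median log2 change of -0.16 (-0.04 without Nat10 d/d replicate 2 and -0.37 without replicate 3). In 1 of them, Ccl21a, the groups did not overlap (all genes tested, 10.7%). None of these markers was at 0 in any library, and none passed the limma threshold. With array quality weights, which count a library less the more it departs from its group and which called 316 of all 12640 genes, Kdr, Eng and Tie1 were lower with limma adjusted p of 0.0386, 0.0386 and 0.0481. Their part in the values of the 5 genes was not tested.

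Ratios to single endothelial genes depended on the gene chosen. Pecam1 had a log2 change of -0.05, while Kdr was among the markers that were lower without overlap (-0.47). Calcrl relative to Pecam1, an adhesion molecule of all endothelium, was 0.307 ± 0.0198 in f/f and 0.296 ± 0.0105 in d/d uteri (SD, n = 3). Ramp2 relative to Pecam1 was 1.25 ± 0.0535 in f/f and 1.25 ± 0.0543 in d/d uteri (SD, n = 3). Ramp3 relative to Pecam1 was 0.351, 0.26 and 0.291 in f/f and 0.17, 0.19 and 0.134 in d/d uteri, without overlap. Kdr, the main receptor for the growth factor Vegfa, was at 27.6 ± 0.413 FPKM in f/f and 19.6 ± 1.04 in d/d uteri (SD, n = 3). Relative to Kdr, Ramp3 was at 0.886, 0.62 and 0.728 in f/f and at 0.616, 0.602 and 0.441 in d/d uteri. The lowest control ratio and the highest d/d ratio to Kdr were nearly equal. Calcrl relative to Kdr was 0.757 ± 0.0533 in f/f and 0.997 ± 0.106 in d/d uteri, and Ramp2 relative to Kdr was 3.08 ± 0.0384 and 4.2 ± 0.461 (SD, n = 3), both higher in every d/d library.

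Markers of other tissues also differed between libraries. Red blood cell genes summed to 851.4 to 5580.6 FPKM in f/f and 709.4 to 1722.8 in d/d uteri, with all 5 genes lower on average in d/d uteri and overlapping groups. Fat genes summed to 48.2 FPKM in Nat10 f/f replicate 1, where Ramp3 was also highest, and to 0.979 to 7.56 in the other 5 libraries. Without that library the log2 change of Ramp3 was -0.74. All 9 stromal markers had lower means in d/d uteri (median log2 change -0.17), each with overlapping groups, and they summed to 3724.3 to 4273.1 FPKM in f/f and 3068.6 to 4197.8 in d/d uteri. Without Nat10 d/d replicate 2, 7 of the 9 were lower and 2 higher, and groups did not overlap in 5 (31.8% of all genes did not overlap there). In that setting Col1a1, a fibrillar collagen, had a log2 change of -0.95 with a limma adjusted p of 0.0355, and Dcn, a matrix proteoglycan, turned from -0.15 to 0.14. Of the 5 mesothelial markers 4 were lower (median log2 change -0.31), and Msln (5.24 ± 1.09 against 3.36 ± 0.458 FPKM) and Lrrn4 (3.14 ± 0.568 against 1.57 ± 0.597; f/f against d/d, SD, n = 3) were below all controls in every d/d library, as were 4.6% of all genes tested. The mesothelial sum, most of it Krt19, was 221.0 to 260.2 FPKM in f/f and 213.4 to 259.1 in d/d uteri. Of the 8 epithelial markers 6 were higher (median log2 change 0.17), and they summed to 596.5 to 696.1 FPKM in f/f and 676.7 to 767.6 in d/d uteri. Groups did not overlap in 4 of the 8 (all genes tested, 10.7%): Epcam, Cldn7 and Wnt7a were higher in every d/d library, and Foxa2, a transcription factor of the uterine glands, was lower (2.32 ± 0.352 against 1.38 ± 0.322 FPKM; f/f against d/d, SD, n = 3). The groups of Epcam overlapped with quantile normalization, medians centred or upper-quartile scaling. Smooth muscle markers summed to 4098.0 to 4711.6 FPKM in f/f and 3819.7 to 4868.3 in d/d uteri, and leukocyte markers to 22.6 to 39.3 and 23.5 to 33.9. Nerve and glial markers summed to 4.14 to 4.7 FPKM in f/f and 3.91 to 5.92 in d/d uteri, and ovarian genes to 29.0 to 30.0 and 18.6 to 25.0, without overlap. Nearly all of the ovarian sum came from Foxl2, a gene that the uterus also expresses, while Zp3 and Fshr were listed at 0 in all 6 libraries. Of the other ovarian genes, Gdf9 was at 0.826 to 1.58 FPKM in f/f and 0.395 to 1.22 in d/d uteri, and Amh was at 0.0799 to 0.683 and 0.118 to 0.287. The part of these markers in the values of the 5 genes was not tested.

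The other peptides that act through Calcrl or its relative Calcr were barely detected. Of the 8 listed ligands, receptors and accessory proteins of the family, 3 passed the filter of 1 FPKM in 3 libraries. Calca, which encodes calcitonin and calcitonin gene-related peptide, was at 0 to 0.399 FPKM in f/f and 0.194 to 0.535 in d/d uteri. Calcb, Adm2 (intermedin) and the calcitonin receptor gene Calcr were at 0.207 FPKM or below in every library, and Iapp (amylin) was listed at 0 in all 6. Adm was thus by far the highest of the 5 peptide genes in every library. Peptides made in nerve cell bodies outside the uterus would not appear in these values.

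Ackr3, an atypical receptor that takes up adrenomedullin without G protein signalling, was at 16.5, 16.1 and 16.7 FPKM in f/f and at 12.1, 10.9 and 14.3 in d/d uteri. All d/d values were below all controls, as in 4.6% of all genes tested (log2 change -0.38, SE 0.12). Crcp, an intracellular protein that couples Calcrl to signalling, was at 10.3 ± 1.53 FPKM in f/f and 13.0 ± 3.5 in d/d uteri (SD, n = 3; log2 change 0.29, SE 0.21), with overlapping groups. Its log2 change was 0.13 without Nat10 d/d replicate 2. Gpr182, another endothelial atypical receptor, was at 1.51 to 1.9 FPKM in the 6 libraries.

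All 7 genes for processing, binding or breakdown of the peptide passed the filter, 2 higher and 5 lower in d/d uteri, with a median log2 change of -0.08. The median was 0.1 without Nat10 d/d replicate 2 and -0.25 without replicate 3. Pam, the enzyme that amidates the peptide and so makes it active, was at 55.2, 51.0 and 54.9 FPKM in f/f and at 63.5, 66.3 and 60.8 in d/d uteri. All d/d values were above all controls (log2 change 0.24, SE 0.10). Over all genes tested, groups did not overlap in 10.7%, counting both directions. Mme, the peptidase neprilysin, which degrades adrenomedullin, was at 26.0 ± 5.43 FPKM in f/f and 34.7 ± 5.59 in d/d uteri (SD, n = 3; log2 change 0.41, SE 0.18), and its groups overlapped.

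Downstream of the receptor, 27 of 28 genes of the cAMP route passed the filter, 7 higher and 20 lower in d/d uteri, with a median log2 change of -0.07. None passed the limma threshold in either direction, and groups did not overlap in 3 of the 27, near the share over all genes (10.7%). Without Nat10 d/d replicate 3 the median was -0.14 and groups did not overlap in 14 of the 27 (1 higher, 13 lower), where the share over all genes was 30.2%. Adcy3, an adenylyl cyclase, was at 9.14 ± 0.257 FPKM in f/f and 7.33 ± 0.727 in d/d uteri (SD, n = 3; log2 change -0.29, SE 0.11). Nos3, the endothelial nitric oxide synthase through which adrenomedullin relaxes vessels, was at 7.92, 7.5 and 7.72 FPKM in f/f and at 6.61, 4.98 and 7.48 in d/d uteri. Its highest d/d value was only just below the lowest control, and its log2 change was -0.12 without Nat10 d/d replicate 2. Crem, a cAMP-responsive transcription factor, was at 6.66, 8.14 and 7.63 FPKM in f/f and at 10.8, 9.54 and 9.63 in d/d uteri, a log2 change of 0.38 (SE 0.12). Crem was the only gene of this list whose d/d values were all above the controls, and it was called with array quality weights (limma adjusted p = 0.048).

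Ramps also associate with other receptors, and 4 of 10 such genes passed the filter. Vipr1, a receptor for vasoactive intestinal peptide, was at 2.59, 2.7 and 3.17 FPKM in f/f and at 1.18, 1.18 and 2.18 in d/d uteri. It was below all controls in every d/d library, as were 4.6% of all genes tested (log2 change -0.62, SE 0.19). Vipr2, its close relative, was at 3.7 ± 1.1 FPKM in f/f and 4.75 ± 1.63 in d/d uteri (SD, n = 3; log2 change 0.28, SE 0.27), with overlapping groups. Without Nat10 d/d replicate 2 its log2 change was 0.54 and the groups did not overlap, as in 31.8% of all genes there. Pth1r, the parathyroid hormone receptor, was the most abundant of these partners at 30.1 to 37.4 FPKM. Gper1, a membrane oestrogen receptor that associates with Ramp3, was at 5.03 to 6.6 FPKM, with overlapping groups.

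Adm is a known target of hypoxia-inducible factors. All 16 genes of that response passed the filter, 10 higher and 6 lower in d/d uteri, with a median log2 change of 0.04 (all genes tested, 0.03). The split turned to 7 higher and 9 lower with quantile normalization and 6 and 10 with array quality weights. It was 8 and 8 with medians centred or upper-quartile scaling. The median was -0.03 without Nat10 d/d replicate 3 and -0.02 without Nat10 f/f replicate 3. Vegfa, another target, was at 59.9, 69.0 and 59.9 FPKM in f/f and at 53.0, 47.6 and 44.8 in d/d uteri (log2 change -0.37, SE 0.12), and was the only 1 of the 16 genes whose groups did not overlap (all genes tested, 10.7%). Ankrd37 had a log2 change of 0.45 (SE 0.22) and Pdk1 one of 0.38 (SE 0.20), and both overlapped. Pdk1 was at 12.1, 7.11 and 12.5 FPKM in the d/d libraries, lowest in replicate 2 as Adm was. Without that library the log2 change was 0.63 for Ankrd37 and 0.62 for Pdk1, and groups did not overlap in 6 of the 16 genes (all genes, 31.8%). Ankrd37, Pdk1 and Bnip3 were the 3 higher, and Vegfa, Arnt and Ldha the 3 lower. Pgk1 and Ldha, glycolytic targets, were highest in that same library, at 123.3 and 346.9 FPKM, so these targets did not share 1 order of the d/d libraries. The part of the hypoxia response in the values of Adm was not tested.

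**Figure D4:**
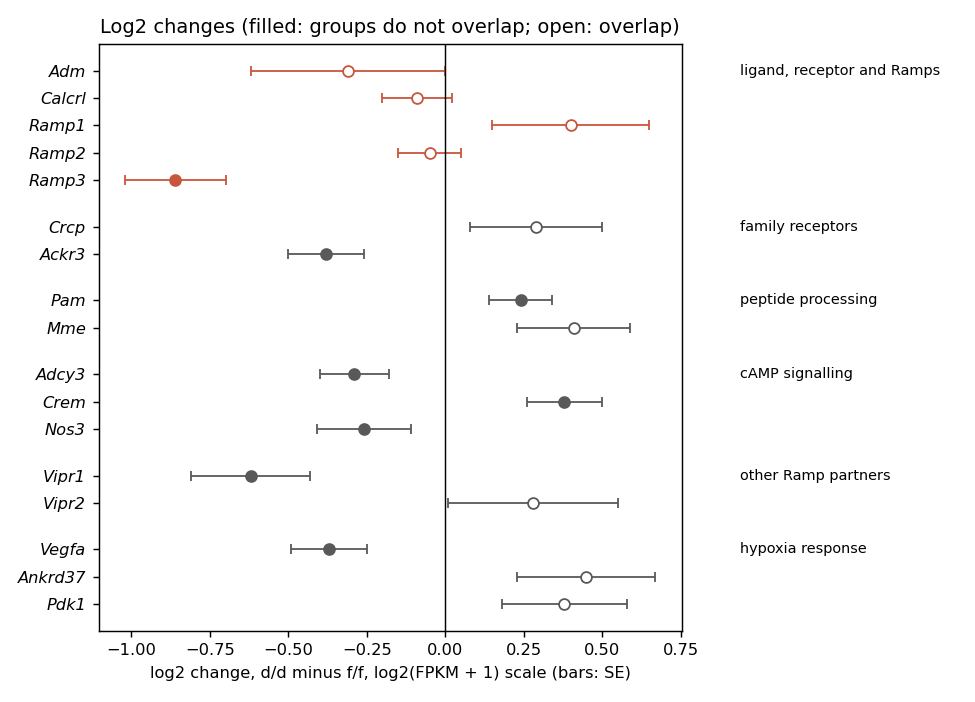
Log2 change, d/d minus f/f, on the log2(FPKM + 1) scale (horizontal axis) with its SE for the 5 adrenomedullin genes (red) and 12 further genes of the pathway lists (grey). Filled symbols mark genes whose groups do not overlap; Ramp3, at -0.86, is the lowest, followed by Vipr1 at -0.62, and no gene passed the limma threshold.

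For each of the 5 genes, the 3 genes with the most similar values were listed by Pearson correlation of log2(FPKM + 1) over the 6 libraries, among 9996 other genes with a mean of at least 5 FPKM. High correlations were common over these 6 libraries: 275 genes were above 0.9 with Adm, 244 with Ramp1, 40 with Ramp3, 37 with Ramp2 and 26 with Calcrl. For Ramp3 they were Ajap1 (r = 0.981), Aldh1a2 (0.969), which makes retinoic acid, and Lrrc55 (0.967). Aldh1a2 was at 32.5, 28.7 and 28.8 FPKM in f/f and at 24.0, 26.1 and 23.2 in d/d uteri, a smaller difference than that of Ramp3. For Ramp1 they were Cyp26a1 (0.993), which breaks down retinoic acid, Slc25a32 (0.992) and Zbtb44 (0.991). Cyp26a1 was at 4.05, 3.82 and 3.07 FPKM in f/f and at 7.84, 2.54 and 12.0 in d/d uteri, with the same order of d/d libraries as Ramp1. For Adm they were the histone methyltransferase gene Kmt2a (0.999), Gadd45g (0.991) and the adenylyl cyclase gene Adcy5 (0.989). Adcy5 was at 22.4, 16.0 and 28.5 FPKM in the d/d libraries, lowest in replicate 2 and highest in replicate 3 as Adm was. For Calcrl they were Synpo2 (0.964), Pex16 (0.959) and Il20rb (0.956), and for Ramp2 Uchl1 (0.993), Adam1a (0.969) and 2700081O15Rik (0.968).

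Among the 5 genes themselves, the closest pair over the 6 libraries was Ramp2 with Calcrl (r = 0.66), and Ramp3 with Calcrl followed at 0.6. Ramp3 and Ramp1 had the lowest correlation, at -0.61, and Ramp3 and Adm were at 0.06. These are descriptions over 6 libraries.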

How the data were processed

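Whole-uterus RNA was sequenced as 3 Nat10 f/f and 3 Nat10 d/d TruSeq libraries of TRIzol RNA, per the labels' protocols. The submitters' processing notes name HISAT2 2.2.1, Cufflinks 2.2.1 and mm10. The authors deposited 1 FPKM value per gene and library, scaled by gene length and mapped fragments. The unit was taken as FPKM because Cufflinks writes that unit and because the values are not whole and sum to between 500764 and 549263 per library; the file headers name no unit. The annotation, gene filter and strand setting are not given in the sources used here.

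Values were analysed as log2(FPKM + 1). Genes with at least 1 FPKM in at least 3 libraries were tested (12640) with limma 3.58.1 in R 4.3.3, with group as the only term, a mean-variance trend, two-sided p-values and Benjamini-Hochberg adjustment across all genes. The fit was tested on simulated data. Relative depth was estimated from the lowest values. No 2 libraries were identical. Marker and pathway lists are described by counts and medians. Genes of the pathway lists were named when their groups did not overlap or when they had 1 of the 2 largest changes of their list; others named were picked after their values were seen. The genes and lists were chosen with earlier results of these data known. Count-based tools were not used, because FPKM are not counts. Alternatives were pseudocount, filter, scaling, trend, replicate block, array weights and leaving out each library. Python 3.11.15, pandas 2.3.3 and matplotlib 3.10.9 were used.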

Additional observations from a re-analysis of the deposited data

How the results depend on the processing

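The count of genes passing an adjusted p of 0.05 in limma was 0 under all other pseudocounts, filters, scalings and trend settings tried, with 604 to 886 genes at an unadjusted p under 0.05. It was 316 with array quality weights. These were 3.74 for Nat10 d/d replicate 1, 0.224 for replicate 2 and 0.451 for replicate 3. The d/d group thus rested mostly on replicate 1 in this setting. With these weights Ramp3 had an adjusted p of 0.0386 and Ramp1 of 0.0532 (limma), and the log2 change of Ramp2 moved to 0.03. Of the pathway and marker lists, these weights called Ackr3, Vipr1, Kdr, Eng, Tie1, Col1a1 and Lrrn4 lower and Crem, Pdk1, Cldn7 and Wnt7a higher, with limma adjusted p of 0.0386 to 0.0486. Leaving out 1 library gave 0 to 12 called genes, the 12 without Nat10 d/d replicate 2, where the limma adjusted p of Ramp3 was 0.133. Genes without overlap numbered 1900 to 4021 when a library was left out, which smaller groups allow. Their split, 774 higher and 582 lower, turned to 523 and 837 with upper-quartile scaling, 539 and 828 with quantile normalization and 555 and 813 with medians centred. Ramp3 stayed lower without overlap with quantile normalization, medians centred and upper-quartile scaling. The other settings could not have made its groups overlap, so they say nothing on this. With the replicate number as a block, 0 genes were called (726 at an unadjusted p under 0.05) and the log2 change of Ramp3 was -0.86. The labels do not say whether equal numbers pair libraries. Correlations of same-numbered deviations were -0.341, -0.029 and 0.1, which cannot settle this with 3 libraries a group.

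Leaving out each library in turn moved list medians as follows: peptide processing -0.25 to 0.1, blood endothelium -0.33 to -0.17, lymphatic endothelium -0.37 to -0.04, mesothelium -0.49 to -0.22, stroma -0.25 to -0.1, epithelium 0.11 to 0.26, cAMP signalling -0.14 to -0.05 and hypoxia response -0.03 to 0.08. The cause was not tested. The log2 change ranged from -0.64 to 0.03 for Adm, -0.14 to -0.05 for Calcrl, 0.2 to 0.71 for Ramp1 and -0.1 to -0.01 for Ramp2. The d/d minus f/f difference in the ratio of Ramp1 to Ramp3, added after seeing the data, was 1.05 to 2.28. With 3 libraries a group and unknown read totals, no counting intervals can be given, and differences of the size seen in Calcrl and Ramp2 were not detectable against the replicate spread.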
